A study of Mus musculus with 8 samples.

Results

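The genes described here handle the uptake of lipid and the export of cholesterol in myeloid cells. The 10 genes were chosen by symbol: Cd36 and Msr1 (uptake receptors), Lpl (a secreted lipase), Fabp4 and Fabp5 (fatty acid carriers in the cell), Nr1h3 and Pparg (nuclear receptors), and Abca1, Abcg1 and Apoe (cholesterol efflux). All 10 were found among the 24062 genes of the deposited count table. All 10 were also among the 13197 genes that had enough counts to be tested. The genes were chosen with earlier results of these data known, so shares of all genes beside their counts are description only.

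The study asked how loss of PARP1 or PARP2, enzymes that attach ADP-ribose to proteins, alters gene expression in immature myeloid cells (IMCs). IMCs were grown from bone marrow of C57BL/6 mice aged 2 months for 3 days in 40 ng/mL of M-CSF, the growth factor of monocytes and macrophages, and total RNA was sequenced. PARP1 WT mice were PARP1 flox/flox and PARP2 WT mice were PARP2 flox/flox, each without Cre, and PARP1CKO and PARP2CKO mice carried the same floxed gene with lysozyme-Cre, a driver active in myeloid cells. Each of the 4 groups had 2 libraries, called biological duplicates in the labels, and the methods state that littermates were used. By the genotype labels each mouse carries 1 of the floxed genes, so the controls are floxed too and PARP1 and PARP2 come from separate lines. The sources do not say that each library came from 1 mouse, so the p-values measure the spread between these libraries.

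Macrophages take up modified lipoproteins through scavenger receptors and fatty acids through CD36, and they release fatty acids from lipoproteins outside the cell with lipoprotein lipase. Sterols formed from the cholesterol taken in activate the liver X receptors, of which Nr1h3 encodes LXRα, and these switch on the transporters Abca1 and Abcg1 and the apolipoprotein Apoe, which move cholesterol out of the cell. Fatty acids activate PPARγ, encoded by Pparg, and Cd36, Fabp4 and Nr1h3 are among its known targets.

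Counts assigned to genes ranged from 37852450 to 61845125 per library. Values are library-scaled counts (CPM) after edgeR's TMM scaling, and group values are mean ± SD with n = 2. Each adjusted p is a Benjamini-Hochberg value over the 13197 genes, computed by the quasi-likelihood test of edgeR in a fit of all 8 libraries, and 0.05 was the threshold for a call. An exact permutation test of 2 libraries against 2 cannot give a two-sided p below 0.333. The targeted genes fell as labelled. PARP1CKO libraries held 61.2 ± 2.91 CPM of Parp1 against 206 ± 6.18 in their controls (adjusted p = 0.0134). PARP2CKO libraries held 25.7 ± 0.0779 CPM of Parp2 against 48.3 ± 0.105 in theirs (adjusted p = 0.000139). Part of each transcript remained, at 0.296 (Parp1) and 0.533 (Parp2) of the control level. Loss of PARP1 or PARP2 below refers to these CKO libraries, and the counts do not show how much protein remained. Xist had at most 3 counts in any library and the Y-linked genes Kdm5d, Eif2s3y, Uty and Ddx3y had 1119 or more, so the groups did not differ in sex. None of the 10 genes lies on chromosome 1 or 14, where Parp1 and Parp2 lie. In bulk RNA, fewer cells of a type and less RNA per cell cannot be told apart.

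The levels of the 10 genes spanned a wide range, and per length Cd36, Lpl and Msr1 stood above the transporters Abca1 and Abcg1. Compared per length, as CPM per kilobase of exon (RPKM) over the union of a gene's exons, the mean over 8 libraries was 510 for Cd36, 361 for Lpl, 328 for Fabp5 and 258 for Apoe. Msr1 followed at 71.6 RPKM. The other 5 genes lay close together, with 15.0 RPKM for Abcg1, 13.1 for Fabp4, 11.5 for Pparg, 9 for Abca1 and 6.93 for Nr1h3. The order among neighbours depended on the length used: with the longest transcript Lpl (919 RPKM) came before Cd36 (539), Apoe (392) before Fabp5 (361), and Pparg (16.0) before Fabp4 (13.9). Library ranges of neighbouring genes overlapped within the first 4 and within the last 5, so no order is read from them. By CPM, which does not correct for length, Lpl ranked 11 and Cd36 ranked 32 among the 13197 genes by mean level, against 7412 for Nr1h3.

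**Figure D1:**
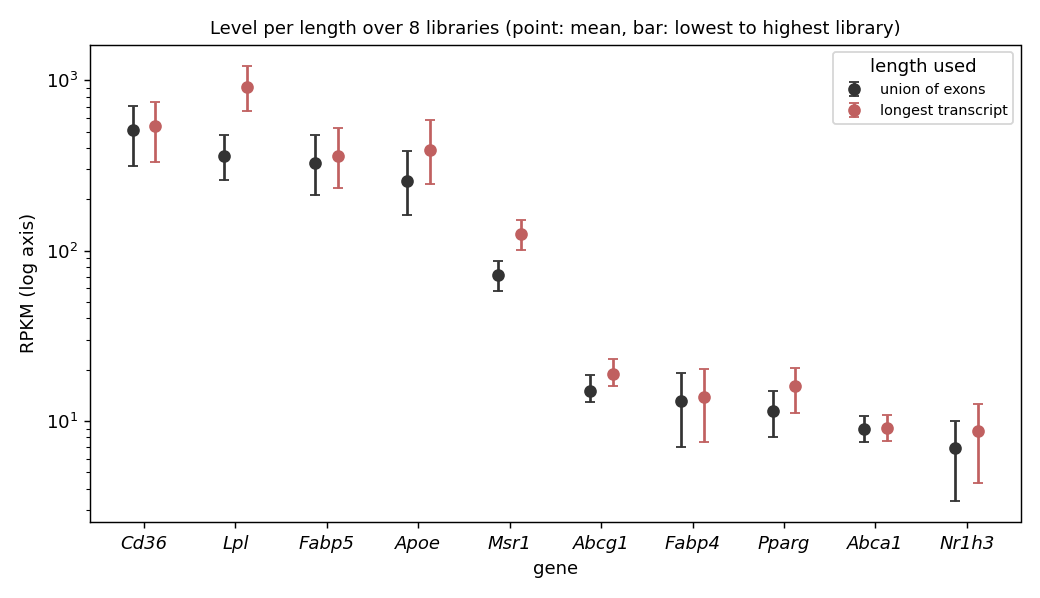
Level per length of the 10 genes in RPKM on a log axis; points are means over 8 libraries, bars run from the lowest to the highest library, and colour gives the length used. Cd36, Lpl, Fabp5 and Apoe lie at 163 RPKM or more in every library with either length, and the 5 genes from Abcg1 to Nr1h3 at 23.2 RPKM or less.

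Promoter sequence was read for the genes that had a RefSeq window, 250 bases upstream of an annotated start to 50 bases after it (GRCm38.p6). Windows were found for 5 of the 10 genes: Cd36, Abca1, Apoe, Nr1h3 and Pparg. Msr1, Lpl, Abcg1, Fabp4 and Fabp5 are named only. The letters AGGTCA, to which nuclear receptors such as PPARγ and LXRα with their partner RXR are known to bind, were searched on both strands. They occurred in 3 of the 10 windows of these genes, 1 of Cd36 and 2 of Pparg, and in 16.3% of all 32851 windows of that length. The exact direct repeats DR1 (AGGTCA copies on the same strand with 1 base between them, the form known for PPAR) and DR4 (with 4 bases between them, the form known for LXR) each contain the shorter motif and were found in no window of these genes, and in 0.0396% and 0.0152% of all windows. With up to 2 mismatches in the 12 fixed letters, a search added after the exact search was seen, DR1 matched once, in the Cd36 window, against 3.86% of all windows, and DR4 matched in none of them, against 3.02%. The 250 upstream bases are shown 5′ to 3′ on the strand of the gene for Cd36, whose fitted change differed most between the deletions, and for the efflux genes Abca1 and Apoe, which had no match. The Pparg windows with a match overlap annotated exons of Pparg and are not printed. The only Cd36 window lies inside the annotated gene, which runs from 17781690 to 17888801 on the minus strand. No window was found at the upstream end of Cd36, so that end was not searched. In Cd36 the first capitals mark AGGTCA, read on the other strand, and the second the match to DR1.
Cd36, chr5:17835897-17836146, minus strand: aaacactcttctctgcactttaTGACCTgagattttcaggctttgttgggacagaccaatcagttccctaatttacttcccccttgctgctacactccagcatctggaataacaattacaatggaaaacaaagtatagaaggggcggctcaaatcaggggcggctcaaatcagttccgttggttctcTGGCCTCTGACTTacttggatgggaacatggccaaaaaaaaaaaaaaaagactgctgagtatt
Abca1, chr4:53159896-53160145, minus strand: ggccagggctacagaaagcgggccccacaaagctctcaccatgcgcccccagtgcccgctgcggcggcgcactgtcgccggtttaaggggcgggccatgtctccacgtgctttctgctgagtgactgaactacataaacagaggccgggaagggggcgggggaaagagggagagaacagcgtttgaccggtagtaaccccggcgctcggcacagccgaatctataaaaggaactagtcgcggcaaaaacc
Apoe window 1, chr7:19699189-19699438, minus strand: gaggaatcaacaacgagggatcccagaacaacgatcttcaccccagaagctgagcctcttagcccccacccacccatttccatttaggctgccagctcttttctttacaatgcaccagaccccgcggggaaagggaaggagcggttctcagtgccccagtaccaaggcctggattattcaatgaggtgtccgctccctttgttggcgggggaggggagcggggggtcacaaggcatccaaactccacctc
A match describes the letters and does not show that a receptor binds there.

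Loss of PARP1 left the lipid genes without a call. In PARP1CKO against PARP1 WT, 0 of the 10 genes passed the threshold, against 0.106% of all tested genes, and 3 had an unadjusted p under 0.05, against 11.3%. The libraries of the 2 groups did not overlap for 3 genes, against 41.2% of all genes, with Fabp5 higher and Cd36 and Pparg lower in PARP1CKO. The median log2 fold change of the 10 was 0.02, against 0.01 over all genes. DESeq2, edgeR's likelihood-ratio test and the fit without a filter on low counts each called 1 of the 10, and it was Cd36. Fitted levels of markers of other cells also differed, none of them called. All 5 monocyte markers had lower fitted levels (median log2 fold change -0.21), with sums of 253 to 284 CPM in PARP1 WT and 208 to 256 CPM in PARP1CKO. All 5 tested erythroid markers had higher fitted levels (median 0.83), with sums of 4.98 to 5.94 and 8.27 to 10.1 CPM. Of these, Hba-a1 and Hba-a2 hold the same counts in every library and so are 1 measurement. The 5 B cell markers also had higher fitted levels (median 0.27), with overlapping sums of 27.5 to 32.2 and 28.7 to 39.8 CPM. The median of the 9 macrophage markers was 0.02. The part of these cells in the values of the lipid genes was not tested.

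Cd36, a receptor for fatty acids and oxidised lipoproteins on chromosome 5 (GENCODE M21 on GRCm38, which is mm10, 17781690 to 17888801), had the largest fitted change of the 10 with PARP1 loss. It measured 1600 and 1610 CPM in the PARP1 WT libraries and 1270 and 1130 CPM in PARP1CKO. Both PARP1CKO libraries lay below both controls. The log2 fold change was -0.42 (SE 0.0724), 1.34-fold lower, with an unadjusted p of 0.000275 and an adjusted p = 0.11. It passed with DESeq2 (adjusted p = 2.39e-07), with the likelihood-ratio test (adjusted p = 7.17e-05) and without a filter (adjusted p = 0.00153). Without PARP1CKO replicate 1, which leaves 1 library in that group, the log2 fold change was -0.51. Across all alternatives the log2 fold change stayed between -0.51 and -0.34. The study names Cd36 for its PARP1CKO comparison of these libraries, so this difference is not independent evidence.

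The other uptake genes showed no call with PARP1 loss. Msr1, the class A scavenger receptor (chromosome 8, 39581685 to 39642673), measured 391 and 448 CPM in the PARP1 controls and 409 and 366 CPM in the PARP1CKO libraries, which overlap (log2 fold change -0.12, SE 0.0859, adjusted p = 0.631). Lpl, lipoprotein lipase (chromosome 8, 68880491 to 68907448), measured 2980 and 3170 CPM in the PARP1 controls and 3690 and 2720 CPM in the PARP1CKO libraries. The PARP1CKO libraries lay on either side of the controls (log2 fold change 0.06, adjusted p = 0.887). Fabp4 (chromosome 3, 10204088 to 10208576) measured 36.3 and 31.7 CPM in the PARP1 controls and 41.0 and 34.4 CPM in the PARP1CKO libraries, overlapping values (log2 fold change 0.15, adjusted p = 0.54). Fabp5 (chromosome 3, 10012548 to 10016607) measured 903 and 755 CPM in the PARP1 controls and 959 and 1070 CPM in the PARP1CKO libraries. Its libraries did not overlap, but the log2 fold change of 0.29 (SE 0.126) had an unadjusted p of 0.0454 and an adjusted p = 0.433. Fabp5 shares 110 of its 3636 75-base windows (3.03%) with transcripts annotated at other loci, so a small part of its counts is uncertain.

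Both nuclear receptors had lower fitted levels with PARP1 loss, and neither passed. Pparg (chromosome 6, 115360951 to 115490399) measured 26.2 and 31.2 CPM in the PARP1 controls and 26.0 and 23.9 CPM in the PARP1CKO libraries (log2 fold change -0.21, SE 0.0886, unadjusted p = 0.0434, adjusted p = 0.428). The PARP1CKO libraries lay just under the lower control, and without PARP1 WT replicate 2 the log2 fold change was -0.08. Nr1h3 (chromosome 2, 91184061 to 91202834) measured 11.7 and 14.4 CPM in the PARP1 controls and 13.6 and 8.58 CPM in the PARP1CKO libraries. The value in PARP1CKO replicate 2 was the lowest of the 8 libraries, while replicate 1 lay within the controls, and without replicate 2 the log2 fold change went from -0.24 (adjusted p = 0.656) to 0.05. Reads of genes that overlap Nr1h3 (Gm13783, Gm23390) or Pparg (Gm44079) may be shared with them, and so may those of Gm25447, which overlaps Abcg1. Gm13783 and Gm25447 lie on the strand of the gene, the others on the opposite strand, and the sources do not say whether counting used the strand.

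The efflux genes were close to their controls in PARP1CKO, with wide spread. Abca1, which loads cholesterol onto the main apolipoprotein of high-density lipoprotein (chromosome 4, 53030787 to 53159895), measured 97.9 and 87.6 CPM in the PARP1 controls and 78.2 and 106 CPM in the PARP1CKO libraries. Abcg1, which passes cholesterol to formed lipoproteins (chromosome 17, 31057675 to 31117988), measured 125 and 110 CPM in the PARP1 controls and 108 and 135 CPM in the PARP1CKO libraries. For both genes the PARP1CKO libraries enclosed the controls, and the log2 fold changes were -0.01 (SE 0.131) and 0.06 (SE 0.0995). Apoe, a secreted apolipoprotein that accepts cholesterol (chromosome 7, 19696109 to 19699188), measured 349 and 406 CPM in the PARP1 controls and 376 and 457 CPM in the PARP1CKO libraries, which overlap (log2 fold change 0.14, SE 0.111, adjusted p = 0.649). With these SEs, smaller changes of the efflux genes were not detectable.

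**Figure D2:**
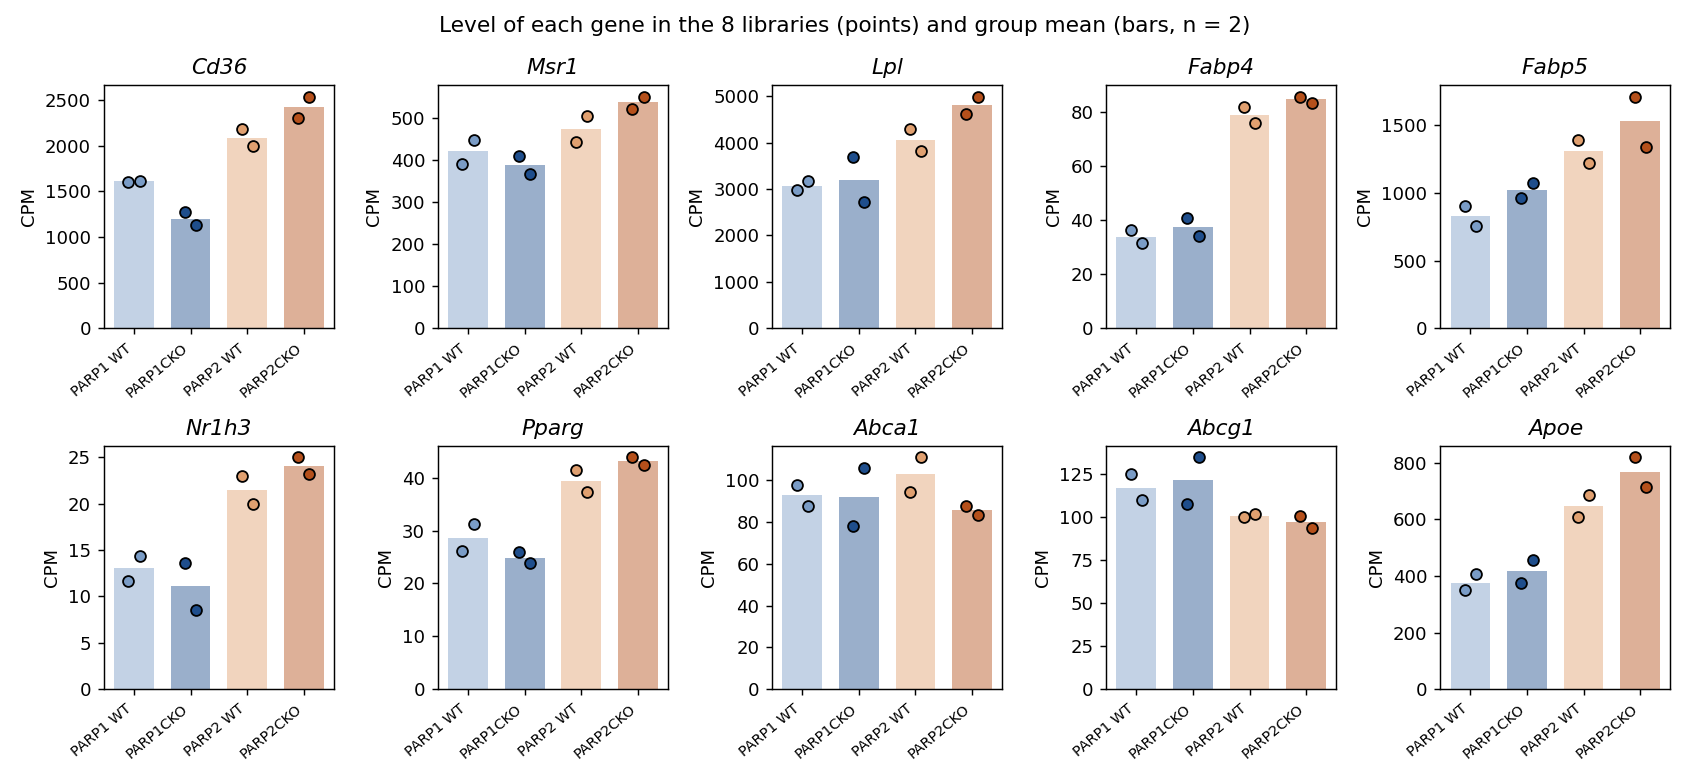
Level of each gene in CPM in every library (points) with the group mean (bars, n = 2) on axes that start at 0; each panel has its own scale. Fabp4, Apoe, Pparg and Nr1h3 are higher in all 4 libraries of the PARP2 line, and Cd36 is lowest in PARP1CKO.

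Loss of PARP2 also left the 10 genes without a call. In PARP2CKO against PARP2 WT, 0 of 10 passed, against 0.053% of all tested genes, and 1 (Cd36) had an unadjusted p under 0.05, against 4.83%. No alternative setting called any of the 10. The fitted levels of 8 genes were higher and those of Abca1 and Abcg1 lower. For 7 genes both PARP2CKO libraries lay above both controls, against 18.4% of all genes, and for Abca1 both lay below, against 18.8%. The median log2 fold change of the 10 was 0.17, against 0 over all genes. Markers of other cells had lower fitted levels in the same libraries, none of them called. Of 8 neutrophil markers 7 had lower fitted levels (median log2 fold change -0.22). The sum of the 8 was 2070 to 2210 CPM in PARP2 WT and 1780 to 2010 CPM in PARP2CKO. The 5 basophil and mast cell markers all had lower fitted levels (median -0.48), with sums of 11.5 to 14.5 and 7.14 to 9.49 CPM. So did the 5 monocyte markers (median -0.24), with sums of 305 to 320 and 283 to 294 CPM. Of 9 macrophage markers 6 had higher fitted levels (median 0.08). The part of these cells in the shift of the lipid genes was not tested.

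Among the uptake genes, Cd36 measured 2180 and 2000 CPM in the PARP2 controls and 2310 and 2540 CPM in the PARP2CKO libraries. The libraries did not overlap, with PARP2CKO higher, and the log2 fold change was 0.21 (SE 0.0722, unadjusted p = 0.0169, adjusted p = 0.888). Msr1 measured 442 and 504 CPM in the PARP2 controls and 521 and 550 CPM in the PARP2CKO libraries (log2 fold change 0.18, adjusted p = 0.954). Lpl measured 4290 and 3820 CPM in the PARP2 controls and 4610 and 4990 CPM in the PARP2CKO libraries (log2 fold change 0.24, SE 0.125, adjusted p = 0.954). Both were higher in each PARP2CKO library than in each control, without passing. Fabp4 measured 82.2 and 76.2 CPM in the PARP2 controls and 85.9 and 83.6 CPM in the PARP2CKO libraries (log2 fold change 0.10, adjusted p = 0.958). Fabp5 measured 1390 and 1220 CPM in the PARP2 controls and 1710 and 1340 CPM in the PARP2CKO libraries, with PARP2CKO replicate 2 inside the range of the controls (log2 fold change 0.22, adjusted p = 0.954).

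The fitted levels of the nuclear receptors were slightly higher with PARP2 loss, and neither passed. Pparg measured 41.4 and 37.4 CPM in the PARP2 controls and 43.9 and 42.5 CPM in the PARP2CKO libraries (log2 fold change 0.13, SE 0.0836, adjusted p = 0.954). Nr1h3 measured 23 and 20 CPM in the PARP2 controls and 25 and 23.2 CPM in the PARP2CKO libraries (log2 fold change 0.16, SE 0.171, adjusted p = 0.968). For both genes the libraries did not overlap, by a gap that was small beside the spread.

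Of the efflux genes, Abca1 measured 94.2 and 111 CPM in the PARP2 controls and 87.8 and 83.4 CPM in the PARP2CKO libraries. It was the 1 gene of the 10 whose PARP2CKO libraries both lay below the controls (log2 fold change -0.26, SE 0.13, unadjusted p = 0.076, adjusted p = 0.954). Abcg1 measured 100 and 102 CPM in the PARP2 controls and 101 and 93.8 CPM in the PARP2CKO libraries, which overlap (log2 fold change -0.06, SE 0.0996). Apoe measured 610 and 685 CPM in the PARP2 controls and 820 and 716 CPM in the PARP2CKO libraries, higher in each PARP2CKO library (log2 fold change 0.25, SE 0.11, unadjusted p = 0.0527, adjusted p = 0.954). Thus Apoe lay above and Abca1 below its controls in the same libraries, and neither difference passed.

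Whether the deletions differ in their effect was tested directly as the PARP2CKO log2 fold change minus the PARP1CKO log2 fold change. None of the 10 genes passed, against 0.0152% of all genes, and 3 had an unadjusted p under 0.05, against 7.69%. Cd36 had the largest difference, 0.63 (SE 0.102, unadjusted p = 0.000173, adjusted p = 0.122), since its fitted level was lower with PARP1 loss and higher with PARP2 loss. It passed with DESeq2 (adjusted p = 2.69e-08), with the likelihood-ratio test (adjusted p = 2.13e-05) and without a filter on low counts (adjusted p = 0.0015). The difference stayed between 0.55 and 0.72 over all alternatives. Pparg differed by 0.34 (SE 0.122, unadjusted p = 0.0213, adjusted p = 0.609) and Msr1 by 0.30 (SE 0.121, unadjusted p = 0.0381, adjusted p = 0.631). For the other 7 genes no unadjusted p was under 0.05. The difference was 0.40 for Nr1h3, 0.18 for Lpl, 0.10 for Apoe, -0.06 for Fabp4, -0.07 for Fabp5, -0.11 for Abcg1 and -0.25 for Abca1. Parp1, the gene deleted in PARP1CKO, did not pass this test either (difference 2.13, SE 0.245, unadjusted p = 1.26e-05, adjusted p = 0.0552). A gene could therefore miss the threshold here despite a large difference.

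**Figure D3:**
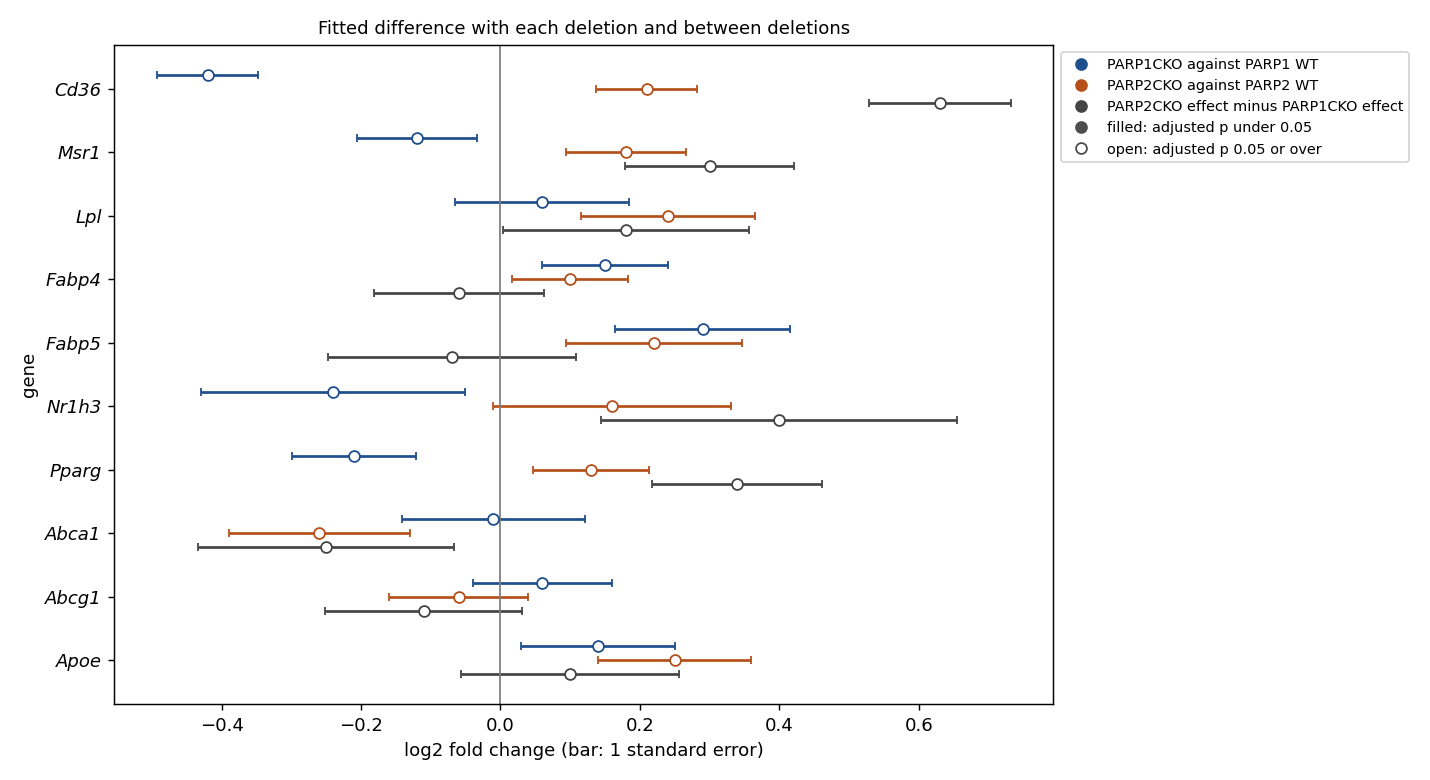
Log2 fold change of each gene with PARP1 loss, with PARP2 loss, and the difference between them; bars are 1 standard error and open points did not pass an adjusted p of 0.05. All 30 points are open, and Cd36 is the gene whose fitted changes lie farthest apart, at -0.42 and 0.21.

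Between the Cre-free controls of the floxed lines 417 genes were called, against 14 with PARP1 loss and 7 with PARP2 loss, and 5 of the 10 lipid genes were among them. These were Fabp4, Apoe, Cd36, Pparg and Fabp5, all higher in PARP2 WT than in PARP1 WT. Over all tested genes 3.16% passed, and 1.92% passed with a higher level in PARP2 WT. The median log2 fold change of the 10 was 0.43, against 0 over all genes. The lines were bred apart, and line, litter and any difference in handling cannot be told apart.

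Fabp4, the fatty acid carrier also known from adipocytes, had the largest difference, with 31.7 to 36.3 CPM in PARP1 WT and 76.2 to 82.2 CPM in PARP2 WT. It was 2.33-fold higher in PARP2 WT (log2 fold change 1.22, SE 0.0876, adjusted p = 0.000532), and it passed in every alternative (highest adjusted p = 0.00636). The 5 adipocyte markers, Adipoq, Plin1, Cfd, Lep and Cidec, summed to 0 CPM in both PARP1 WT libraries, and to 0.0961 and 0.813 CPM in PARP2 WT, where replicate 1 held 12 counts of Adipoq and 26 of Cfd. In PARP2CKO they summed to 0.0207 and 0.0838 CPM while Fabp4 measured 83.6 and 85.9 CPM. The part of adipocytes in the Fabp4 difference was not tested. The neighbour of Fabp4 on chromosome 3, Fabp5, was 1.58-fold higher in PARP2 WT (log2 fold change 0.66, SE 0.127, adjusted p = 0.0307).

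Apoe was 1.72-fold higher in PARP2 WT, with 610 and 685 CPM against 349 and 406 CPM (log2 fold change 0.78, SE 0.111, adjusted p = 0.00924). Pparg was 1.37-fold higher (log2 fold change 0.45, SE 0.0861, adjusted p = 0.0292) and Cd36 1.30-fold higher (log2 fold change 0.38, SE 0.0723, adjusted p = 0.029). For 7 of the 10 genes, the 5 called genes, Nr1h3 and Lpl, both PARP2 WT libraries lay above both PARP1 WT libraries, against 26.7% of all genes. Nr1h3 (log2 fold change 0.71, SE 0.18, adjusted p = 0.0744) and Lpl (0.40, SE 0.125, adjusted p = 0.135) did not pass. Nr1h3 passed with DESeq2 (adjusted p = 0.000678), and both passed with the likelihood-ratio test (adjusted p = 0.00481 and 0.0332), without a filter (0.00336 and 0.0151), in the fit of the 4 WT libraries alone (0.0278 and 0.028) and without either PARP1CKO library. Msr1 (0.17, adjusted p = 0.321) and Abca1 (0.15, adjusted p = 0.591) overlapped, and Abcg1 was the 1 gene with a lower fitted level in PARP2 WT (-0.21, SE 0.0997, adjusted p = 0.296). The count of 5 rests on the few libraries: it was 1 without PARP1 WT replicate 1 or without PARP2 WT replicate 2, 3 without PARP1 WT replicate 2 and 2 without PARP2 WT replicate 1, and it was 7 without either PARP1CKO library. It was 6 with DESeq2 and in the fit of the 4 WT libraries, where Pparg lost its call (adjusted p = 0.0535), and 7 with the likelihood-ratio test and without a filter.

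The same genes could be compared between the lines in other libraries, those of the CKO mice, a comparison added after the data were seen, which joins the line with both deletions. In PARP2CKO against PARP1CKO, 8 of the 10 genes passed, all higher in PARP2CKO, against 10.3% of all genes in either direction and 4.99% higher. Several of the 10 genes vary together over the 8 libraries, so they are not 10 separate observations. The 5 genes called between the controls were all among the 8. The CKO mice came from the same lines as the controls and were tested in the same fit, so this recurrence is not independent evidence. Fabp4 was 2.24-fold higher (log2 fold change 1.17, SE 0.0864, adjusted p = 0.000335), Nr1h3 2.17-fold (1.12, SE 0.181, adjusted p = 0.00811) and Cd36 2.02-fold (1.01, SE 0.0729, adjusted p = 0.000334). Apoe (0.88, adjusted p = 0.00275), Pparg (0.79, adjusted p = 0.0014), Fabp5 (0.59, adjusted p = 0.0228), Lpl (0.58, adjusted p = 0.0223) and Msr1 (0.47, adjusted p = 0.0128) were the others called. Abca1 (-0.10, adjusted p = 0.659) and Abcg1 (-0.32, adjusted p = 0.0754) were not called. Over all 8 libraries, every PARP2 line library lay above every PARP1 line library for 7 genes, Cd36, Lpl, Apoe, Nr1h3, Pparg, Fabp4 and Fabp5, against 10.5% of all tested genes. Abcg1 was separated in the opposite direction, and Msr1 and Abca1 overlapped.

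**Figure D4:**
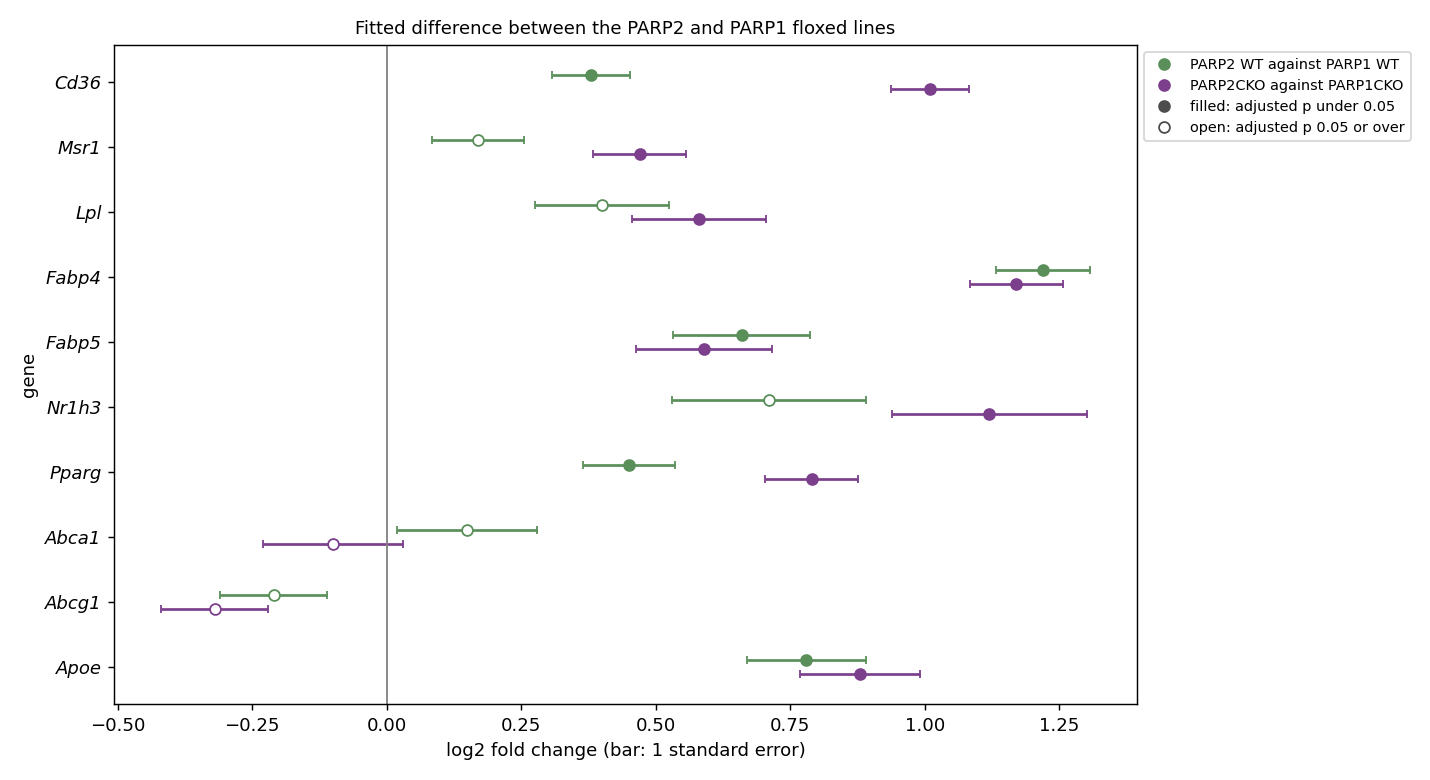
Log2 fold change of each gene between the floxed lines, for the WT libraries and for the CKO libraries; bars are 1 standard error, and filled points passed an adjusted p of 0.05. Fabp4 has a log2 fold change of 1.22 and 1.17, while the transporters Abca1 and Abcg1 have open points on or below 0.15.

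The marker lists of other cells also differed between the lines. The 9 macrophage markers summed to 4520 to 4820 CPM in PARP1 WT and 4950 to 5230 CPM in PARP2 WT, and 1 of the 9 passed, higher. The 4 granulocyte progenitor markers summed to 265 to 302 CPM against 347 to 390 CPM, with 2 called higher. The 5 B cell markers summed to 27.5 to 32.2 CPM in PARP1 WT and 8.96 to 10.6 CPM in PARP2 WT, and all 5 were called lower. Of 8 measured neutrophil markers 2 were called lower, and 2 of 5 tested erythroid markers were, Hba-a1 and Hba-a2, which hold the same counts in every library and so are 1 measurement. The lists of basophils and mast cells (24.0 to 25.8 against 11.5 to 14.5 CPM), monocytes, dendritic cells, T and NK cells, platelets, endothelial cells and marrow stromal cells had no call. The basophil gene Hdc held 320 counts in PARP2 WT replicate 1 and 51 or fewer in the other libraries of the PARP2 line. In PARP2CKO against PARP1CKO 3 of 9 macrophage and 3 of 4 granulocyte progenitor markers were called higher. All 5 B cell markers, 4 of 5 basophil and mast cell markers, 4 of 5 erythroid markers and 3 of 8 neutrophil markers were called lower, and of the monocyte and the dendritic cell markers 1 each was called higher and 1 lower. None of the marker genes was called with PARP1 loss or with PARP2 loss. The defining macrophage genes Csf1r and Cd68 had 46904 or more counts in every library, and neutrophil markers, which summed to 1780 to 2320 CPM, were present in every group beside them. The part of these cells in the differences of the lipid genes was not tested.

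**Figure D5:**
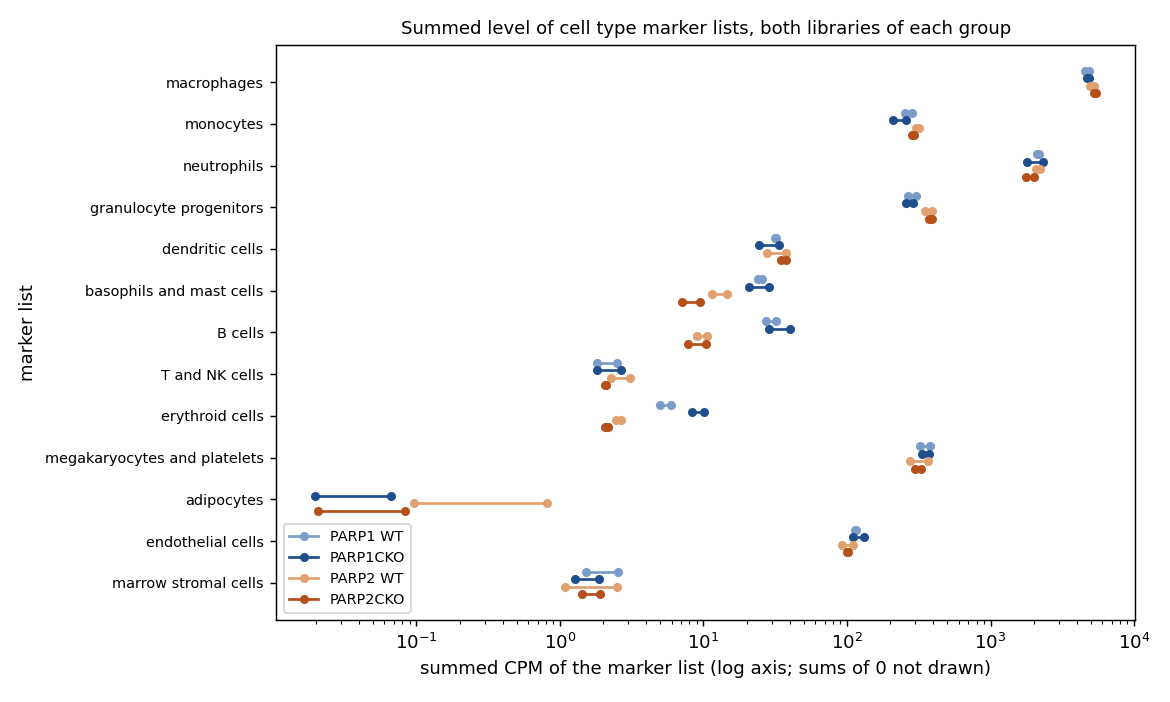
Summed level of each cell type's marker genes in CPM on a log axis, with both libraries of each group as joined points. Macrophage markers lie between 4520 and 5430 CPM in all groups, and B cell and basophil markers are lower in both PARP2 line groups.

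Other genes of the same pathways were taken from lists by symbol, also chosen with earlier results of these data known. With PARP1 loss and with PARP2 loss none of the 72 tested genes of the 7 lists passed, against 0.106% and 0.053% of all genes, nor did any in the test of the difference. Of these 72 genes, 15 had an unadjusted p under 0.05 with PARP1 loss, against 11.3% of all genes, 13 with PARP2 loss, against 4.83%, and 13 for the difference, against 7.69%. In PARP2 WT against PARP1 WT 7 of the 72 passed, all higher in PARP2 WT, against 3.16% of all genes in either direction and 1.92% higher. Of 10 tested LXR targets outside the members, 3 passed: Srebf1, the regulator of fatty acid synthesis genes, Mertk, a receptor for the uptake of dying cells, and Pltp, the phospholipid transfer protein. Srebf1 had a log2 fold change of 0.17 (SE 0.0378, adjusted p = 0.0497), just past the threshold. Mertk had a log2 fold change of 0.76 (SE 0.0942, adjusted p = 0.00529) and Pltp of 0.46 (SE 0.0859, adjusted p = 0.0267). Of 9 tested PPAR targets 1 passed, Plin2, which coats lipid droplets (0.35, SE 0.0468, adjusted p = 0.00703). Of 10 tested nuclear receptors and cofactors Rxra, the partner of LXRα and PPARγ, passed (0.36, SE 0.0756, adjusted p = 0.0416).

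Among 12 other lipoprotein and scavenger receptors, Marco passed, with a mean of 19.1 CPM in PARP1 WT and 45.5 CPM in PARP2 WT (log2 fold change 1.24, SE 0.235, adjusted p = 0.029). Of 15 genes of fatty acid activation and storage 1 passed, the fatty acid carrier Fabp3, with a mean of 6.34 CPM in PARP1 WT and 22 CPM in PARP2 WT (1.78, SE 0.175, adjusted p = 0.00183). None of 6 tested lipase helpers and none of 12 genes of cholesterol handling in the cell passed. The medians of the 7 lists in this comparison lay between 0.03 and 0.21, below the 0.43 of the 10 genes.

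In the CKO libraries the lists moved in both directions. In PARP2CKO against PARP1CKO 19 of the 72 genes passed, against 10.3% of all genes, with 15 higher and 4 lower. Of the LXR targets Mertk (0.86, adjusted p = 0.00139) and Smpdl3a (0.23, adjusted p = 0.0205) were called higher, and Mylip (-0.28, adjusted p = 0.0162) and Scd2 (-0.47, adjusted p = 0.0442) lower, with a list median of -0.12. Srebf1 and Pltp, called between the controls, were not called here, at -0.11 (adjusted p = 0.0956) and 0.20 (adjusted p = 0.168). The other genes called lower were Cd5l, a secreted macrophage protein (-1.03, adjusted p = 0.0128), and Soat2, which esterifies cholesterol (-1.02, adjusted p = 0.0154). Plin2 (0.54), Rxra (0.40), Marco (1.53), Fabp3 (1.33) and Mertk were called higher between the lines in both the WT and the CKO libraries. The remaining genes called higher in the CKO libraries were the PPAR targets Cpt1a (0.39), Slc25a20 (0.21) and Angptl4 (0.74), the cofactor Ncoa4 (0.27), the scavenger receptors Cxcl16 (0.50), Colec12 (0.93) and Scarb2 (0.15), Soat1 (0.28) and Fabp7 (1.31), with adjusted p from 0.00139 (Cpt1a) to 0.0472 (Angptl4).

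In the deletion comparisons the extremes of each list did not pass. With PARP1 loss they included Angptl4, an inhibitor of lipoprotein lipase, at a mean of 1.98 CPM in the controls and 1.19 CPM in PARP1CKO. Its log2 fold change was -0.72 (SE 0.2, adjusted p = 0.287). Cd5l at 0.53 (adjusted p = 0.355) and Pltp at 0.28 (adjusted p = 0.301) were also among them. With PARP2 loss they included Scd1, which makes monounsaturated fatty acids, at a mean of 138 CPM in the controls and 78.3 CPM in PARP2CKO. Its log2 fold change was -0.82 (SE 0.245, adjusted p = 0.849). Mertk at 0.29 (adjusted p = 0.888) and Fabp7 at 0.77 (adjusted p = 0.954) were also among them. Fabp7 was the highest of its list with PARP1 loss too, at 0.73 (adjusted p = 0.5). The study names Scd1 for its PARP2CKO comparison of these libraries, so that value is not independent evidence. Of the 10 LXR targets tested, 3 had an unadjusted p under 0.05 with PARP1 loss, against 11.3% of all genes, and Srebf1 (0.21), Mylip (0.26) and Pltp (0.28) were all higher. With PARP2 loss 5 did, against 4.83%, in both directions: Smpdl3a (0.25) and Mertk (0.29) were higher, and Scd1 (-0.82), Scd2 (-0.37) and Lpcat3 (-0.15) lower. The unadjusted counts of the other lists with PARP1 loss were 4 of 12 scavenger receptors, 3 of 12 genes of cholesterol handling, 3 of 15 of fatty acid activation and storage, and 1 each of the PPAR targets, the nuclear receptors and the lipase helpers. With PARP2 loss they were 3 of 9 PPAR targets, 2 of 15 genes of fatty acid activation and storage, 1 each of the nuclear receptors, scavenger receptors and cholesterol handling, and 0 of 6 lipase helpers.

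Across the 8 libraries Cd36 varied with 7 of the other lipid genes, and the transporters Abca1 and Abcg1 did not follow it. As a description, the Pearson correlation of log2 CPM with Cd36 was 0.96 for Pparg, 0.94 for Nr1h3, 0.89 for Msr1, 0.87 for Fabp4, 0.86 for Lpl, 0.80 for Apoe and 0.67 for Fabp5, the least alike of these. It was -0.84 for Abcg1 and -0.13 for Abca1. The 8 points share 2 lines and 4 groups, so these values follow in part from the line difference. The genes most like Cd36 over the 8 libraries were Dph6 (0.991), Dusp9 (0.988) and Rpl22 (0.986). Those most like Pparg were Pcca (0.989), Tnfsf12Tnfsf13 (0.988) and Cep152 (0.987), and those most like Abca1 were Slc7a3 (0.965), Dleu2 (0.956) and Tmem57 (0.947). Each set of 3 is the top of all tested genes over only 8 libraries. Some had low mean levels, Slc7a3 with 0.28 CPM, Dusp9 with 3.26 CPM and Dleu2 with 4.1 CPM.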

How the data were processed

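The authors trimmed single-end reads of 75 bases from stranded total RNA libraries, mapped them to mm10 with TopHat2 2.0.12, marked duplicates with Picard 1.127 and deposited raw counts per gene from featureCounts for 8 libraries. The annotation, the use of strand and the treatment of marked duplicates are not given in the sources used here. All values used are deposited counts; no other column was present.

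The counts were analysed in R 4.3.3 with edgeR 4.0.16. Genes were filtered with filterByExpr by group, scaled by TMM and fitted over all 8 libraries, 1 mean per group, and contrasts were taken with the quasi-likelihood test and Benjamini-Hochberg adjustment over 13197 genes. The paper names edgeR and an adjusted threshold of 0.05. The common biological coefficient of variation was 0.055. Replicates of every group differed by more than sampling noise (chi-square per gene 8.69 to 13.1). The tests were checked on simulated counts. RPKM used GENCODE M21 exon lengths, and 75-base windows of the transcripts were compared between genes: 8 of the 10 genes shared none, Lpl 0.888% and Fabp5 3.03%. Promoter windows are RefSeq's. Adgre1 was matched by its synonym Emr1, and Ly6g was not matched. Correlations used log2 CPM with a prior count of 2. Figures were drawn with matplotlib 3.10.9.

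All 10 genes were named in every comparison, with Parp1 and Parp2, every called gene of the lists, the extremes of each list in the deletion comparisons (some are given) and the 3 genes most like Cd36, Abca1 and Pparg. The 10 genes and the lists were chosen with earlier results of these data known. Alternatives were DESeq2 1.42.0 and its size factors, library size alone, the likelihood-ratio test, the 4 libraries of a comparison, no filter, at least 1 CPM in 2 libraries, a replicate block, and leaving out each library.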

Additional observations from a re-analysis of the deposited data

Results flagged for a closer look

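Parp2, the gene deleted in PARP2CKO, had a change that differed between the deletions: its log2 fold change with PARP2 loss minus that with PARP1 loss was -0.82 (SE 0.0639, adjusted p = 0.00634 in edgeR, quasi-likelihood test of the difference), with 25.7 ± 0.0779 CPM in PARP2CKO against 48.3 ± 0.105 CPM in PARP2 WT and 37.6 ± 0.903 CPM in PARP1CKO against 39.9 ± 1.22 CPM in PARP1 WT (SD, n = 2). None of the 10 lipid genes met this criterion, and Parp1 missed it in the same test (adjusted p = 0.0552). Single libraries were judged by leaving each out in turn, since groups of 2 are too small to compare 1 library with the rest of its group.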

How the results depend on the processing

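With 2 libraries per group, calls shifted with the choice of test and with single libraries, and the cause was not tested. A fit without 1 library leaves 1 library in that group, and the spread then comes from the other groups. With DESeq2, the likelihood-ratio test and no filter, 86, 146 and 101 genes were called with PARP1 loss (14 in the report), 27, 39 and 26 with PARP2 loss (7), and 45, 72 and 61 for the difference between them (2), and the lipid genes called with PARP1 loss and for the difference went from 0 to 1 (Cd36) in each. Between the controls of the lines, 910 genes passed the likelihood-ratio test and 872 without a filter, against 417, and with the CKO libraries in place of WT 1363 genes and 8 lipid genes did, and Abca1 turned from 0.15 to -0.10. Leaving out each library gave 1 to 34 genes and 0 to 1 lipid gene with PARP1 loss (34 and 1 without PARP1CKO replicate 1, 1 and 0 without PARP1 WT replicate 2), 4 to 19 genes with PARP2 loss, 1 to 16 genes and 0 to 1 lipid gene for the difference, and 85 (without PARP1 WT replicate 1) to 566 genes (without PARP1CKO replicate 2) and 1 to 7 lipid genes between the controls.

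Several log2 fold changes that were not called changed sign when a library was left out: with PARP1 loss Abca1 ranged from -0.24 to 0.19, Abcg1 from -0.12 to 0.21, Lpl from -0.18 to 0.26, Nr1h3 from -0.61 to 0.05 and Apoe from 0 (just below 0 without PARP1CKO replicate 2) to 0.28, and for the difference Apoe ranged from -0.03 to 0.25, Fabp4 from -0.18 to 0.08, Fabp5 from -0.26 to 0.10, Lpl from -0.02 to 0.42 and Abcg1 from -0.27 to 0.06. All 10 genes kept their direction with PARP2 loss and in the comparison of the controls when a library was left out, but many uncalled values moved by over 1.5 times. With PARP2 loss, for example, Fabp5 ranged from 0.04 to 0.39, Msr1 from 0.09 to 0.28, Nr1h3 from 0.07 to 0.27, Abca1 from -0.37 to -0.14, Pparg from 0.06 to 0.21 and Apoe from 0.15 to 0.34, and between the controls Abca1 ranged from 0.02 to 0.26, Msr1 from 0.07 to 0.27 and Abcg1 from -0.31 to -0.11. Other uncalled values that kept their sign also moved by over 1.5 times when a library was left out. With PARP1 loss Pparg ranged from -0.33 to -0.08, Fabp5 from 0.17 to 0.42, Fabp4 from 0.02 to 0.27 and Msr1 from -0.21 to -0.02. For the difference Nr1h3 ranged from 0.12 to 0.78, Abca1 from -0.45 to -0.02 and Pparg from 0.21 to 0.46. Scaling by DESeq2's size factors or by library size alone changed no call of the 10.

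The replicate numbers do not pair the libraries by any label, and same-numbered deviations correlated at -0.13 in the PARP1 line and 0.15 in the PARP2 line. A replicate block gave 17, 11 and 1 called genes for PARP1 loss, PARP2 loss and the difference, and 315 genes and 4 lipid genes between the controls, where Pparg missed (adjusted p = 0.0531). With numbers crossed, a choice made after seeing the data, the replicate block gave 12 for PARP1 loss.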
